A study of Mus musculus with 6 samples.

Results

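The genes described here are 10 members of the S100 and annexin families, S100a1, S100a4, S100a6, S100a10, S100a11, S100a13, Anxa1, Anxa2, Anxa5 and Anxa6, chosen by symbol from the 12134 genes of the table. All 10 were listed and all 10 passed the filter on low values, as did 11669 genes in all. RNA was sequenced from AB22 cells, a murine malignant mesothelioma line, expressing a hairpin against Hmgb1 (shHMGB1, 3 libraries) or a control hairpin (shCTRL, 3 libraries). Both groups were infected with pTRIPZ lentivirus at a multiplicity of infection of 20, selected in puromycin at 4 µg/mL, grown at 5% oxygen and given 1 µM doxycycline, which switches the hairpin on, for 7 to 10 days. The labels give these libraries no radiation dose, and RNA was taken after synchronization in G1. They name 1 hairpin construct per group and do not say whether the letters A, B and C stand for separate infections, so the p-values rest on the spread of libraries that may share an infection.

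S100 proteins are small calcium-binding proteins with EF-hand loops that mostly work as dimers. Several can leave the cell and act as danger signals through RAGE and Toll-like receptor 4, receptors that HMGB1 also uses. Annexins bind negatively charged membrane lipids when calcium rises, and some pair with an S100 dimer: S100A10 with annexin A2, a complex that gathers plasminogen at the cell surface, and S100A11 with annexin A1. Calcium-dependent membrane repair and plasmin formation are processes in which these pairs are known to take part.

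Reads recovered for 12132 of the 12134 genes numbered 15092340 to 20365552 in shHMGB1 libraries and 12867332 to 23425330 in shCTRL libraries. The library sizes behind the deposited values were not equal to these totals. They were 10871390 in shCTRL B, with 12867332 reads, and 22102233 in shHMGB1 B, with 20365552 reads. The level of Hmgb1 checked the labels. Hmgb1 measured 7.18, 5.79 and 3.80 RPKM (reads scaled by gene length and library size) in shHMGB1 libraries A, B and C, against 33.4, 45.5 and 31.9 RPKM in shCTRL libraries A, B and C (log2 fold change -2.73, SE 0.26; adjusted p = 0.0269 in limma). That call was lost when shHMGB1 B or any shCTRL library was left out (adjusted p = 0.115 to 0.248). Of 14 mesothelial markers, 5 were analysed here, with a summed level of 459.6 to 578.7 RPKM in shHMGB1 and 591.8 to 667.9 RPKM in shCTRL; Wt1, Upk3b and Calb2 were not among them. The most abundant was Efemp1 (428 ± 62.3 RPKM in shHMGB1, 476 ± 40.6 in shCTRL; SD, n = 3 each), and Msln, which encodes mesothelin, averaged 32.9 ± 5.66 and 67.2 ± 13.6 RPKM in the same groups. In the summed level of these markers, most of it Efemp1 in every library, every shHMGB1 library was under every shCTRL library on the deposited scale. With the libraries rescaled to equal sums, a comparison of this sum chosen after the data were seen, the groups overlapped (577 to 686 RPKM in shHMGB1, 446 to 798 RPKM in shCTRL). Marker by marker, 5 of 5 log2 fold changes were below 0, with a median of -0.64 beside 0.01 over all tested genes. With equal sums 3 of 5 were below 0, with a median of -0.28 beside 0.36 over all tested genes. Of the 5, 3 had an unadjusted p under 0.05 in limma, each lower in shHMGB1. That p was reached by 7.91% of all tested genes. Msln had a log2 fold change of -1.02 (unadjusted p = 0.00104 and adjusted p = 0.249 in limma). None of the 5 passed after adjustment. The part of this marker shift in the differences described here was not tested. Of 10 leukocyte markers Lyz2 alone was analysed here, at 2.31 to 2.71 RPKM in shHMGB1 and 1.97 to 2.56 RPKM in shCTRL. Of 8 endothelial markers it was Kdr, at 0.495 to 3.60 RPKM in shHMGB1 and 1.04 to 2.78 RPKM in shCTRL, and of 7 epithelial markers Cdh1, named although it was under the filter, at 0.279 to 0.350 RPKM in shHMGB1 and 0.366 to 0.736 RPKM in shCTRL.

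The libraries differed by gene length within the groups as well as between them. In shHMGB1 C the 957 tested genes under 1000 bases had a median deviation of -0.39 from their mean over the 6 libraries on the log2(RPKM + 0.1) scale, and the 3899 genes of 4000 bases or longer had 0.26. The short genes stood at 0.21 and -0.08 in shHMGB1 A and B, and at 0.11, 0.26 and -0.08 in shCTRL A, B and C. All 6 S100 members are short, with gene lengths of 498 to 809 bases behind their values, while the annexins measure 1447 to 2489 bases. The 10 members had median deviations of 0.22, -0.11 and -0.46 in shHMGB1 A, B and C, and of 0.14, 0.31 and 0.02 in shCTRL A, B and C. Of the 10, 9 had their lowest value of all libraries in shHMGB1 C, as did 59.7% of genes under 1000 bases and 29.2% of all tested genes; S100a11, lowest in shCTRL A, was the exception. Values without shHMGB1 C, with the trend on gene length removed or with equal sums stand beside the members they move most.

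**Figure D1:**
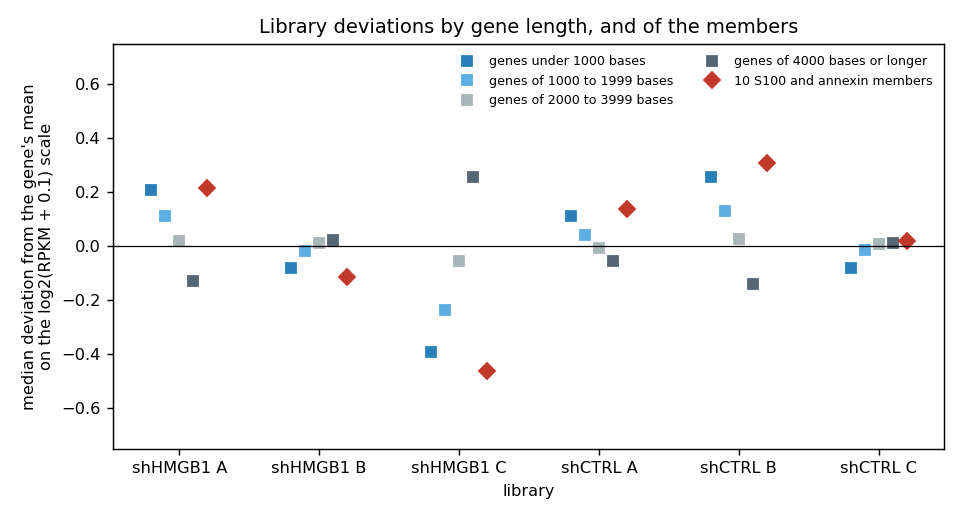
Median deviation of genes in 4 length classes and of the 10 S100 and annexin members (vertical axis, log2(RPKM + 0.1) minus the mean of the gene over the 6 libraries) in each library (horizontal axis). The members are lowest in shHMGB1 C (-0.46), where the genes under 1000 bases are at -0.39, and highest in shCTRL B (0.31), where those genes are at 0.26; in shCTRL C the members are at 0.02 and those genes at -0.08.

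The S100 members lie together on chromosome 3 (GENCODE M21, GRCm38). S100a1 and S100a13 start head to head, S100a1 on the minus strand (90511034 to 90514392) and S100a13 on the plus strand (90514435 to 90524581), with 42 bases between the annotated genes. S100a4 (90603771 to 90606045) and S100a6 (90612882 to 90624181) follow on the plus strand, and S100a11 (93520488 to 93526287) and S100a10 (93555080 to 93564643) lie 2896306 bases further on. Anxa5 is on chromosome 3 as well (36448923 to 36475894, minus strand), Anxa2 on chromosome 9 (69453620 to 69491795, plus), Anxa6 on chromosome 11 (54979108 to 55033445, minus) and Anxa1 on chromosome 19 (20373428 to 20390944, minus). The sources used here do not say whether counting used strand. S100a4 shares 302 exonic bases with Gm42674, a gene annotated as protein-coding on its own strand, and Anxa2 shares 98 with the antisense gene Gm16144. S100a11 has an annotated processed pseudogene on chromosome 12, S100a11-ps. Reads of these genes are therefore partly uncertain. The gene lengths behind the values differ from the exonic bases annotated here, at 1447 against 3731 for Anxa2 and 809 against 1367 for S100a6. Whether these overlaps applied in the counting is thus not known.

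Promoter windows from RefSeq (GRCm38.p6, 250 bases before to 50 after the start) were matched for 8 of the 10 members, all but S100a10 and Anxa6. They were searched on both strands for the TATA box letters TATAAA, the AP-1 letters TGAGTCA and the GC box letters GGGCGG. Shown are S100a4, whose groups did not overlap, and its neighbour S100a6, the most abundant member, with motif matches in capitals. In the S100a4 window (chr3:90603520-90603819, plus strand) the match is TATAAA at position -31 from the start, and the S100a6 window (chr3:90612644-90612943, plus strand) has none of the 3 motifs.
S100a4: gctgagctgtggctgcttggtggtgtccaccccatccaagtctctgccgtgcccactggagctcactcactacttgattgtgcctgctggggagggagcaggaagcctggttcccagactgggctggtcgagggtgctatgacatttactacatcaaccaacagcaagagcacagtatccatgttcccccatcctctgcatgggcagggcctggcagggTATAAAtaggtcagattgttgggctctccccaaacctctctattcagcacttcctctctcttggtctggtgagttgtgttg
S100a6: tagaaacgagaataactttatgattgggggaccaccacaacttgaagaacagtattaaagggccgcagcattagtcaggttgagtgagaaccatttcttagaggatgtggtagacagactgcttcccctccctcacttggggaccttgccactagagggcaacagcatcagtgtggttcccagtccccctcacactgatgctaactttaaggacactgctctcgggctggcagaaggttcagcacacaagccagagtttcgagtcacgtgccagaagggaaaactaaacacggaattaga
The TATA box letters are in 13.6% of the 32851 windows of all genes, the AP-1 letters in 5.20% and the GC box letters in 35.7%. Among the other members, Anxa1 has TATAAA at -32, Anxa2 has all 3 motifs and S100a11 has 2 AP-1 matches and 3 GC boxes. No match says only that these letters are not in the window.

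S100a1 and S100a13 are shown because their windows are largely the same DNA read in opposite directions: their starts are 105 bases apart and the windows (chr3:90514281-90514580, minus strand, and chr3:90514185-90514484, plus strand) share 204 bases, in capitals. Neither holds any of the 3 motifs.
S100a1: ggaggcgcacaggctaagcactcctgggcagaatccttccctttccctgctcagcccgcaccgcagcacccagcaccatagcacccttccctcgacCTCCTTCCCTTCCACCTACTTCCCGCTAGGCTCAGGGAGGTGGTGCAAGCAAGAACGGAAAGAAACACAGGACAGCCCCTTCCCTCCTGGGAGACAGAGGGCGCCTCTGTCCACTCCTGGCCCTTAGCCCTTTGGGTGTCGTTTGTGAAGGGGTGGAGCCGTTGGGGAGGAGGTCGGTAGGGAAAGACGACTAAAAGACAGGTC
S100a13: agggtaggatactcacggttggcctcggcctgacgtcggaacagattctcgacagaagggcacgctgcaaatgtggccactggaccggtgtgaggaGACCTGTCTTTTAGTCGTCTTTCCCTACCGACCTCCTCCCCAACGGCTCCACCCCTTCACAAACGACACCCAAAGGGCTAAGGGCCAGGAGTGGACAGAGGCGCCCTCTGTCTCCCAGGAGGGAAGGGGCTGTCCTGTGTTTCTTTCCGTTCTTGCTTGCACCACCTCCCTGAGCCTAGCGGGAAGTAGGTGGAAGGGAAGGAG

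The family ranges from among the most abundant RNAs of these cells to moderate levels. S100a6, which encodes calcyclin, ranked 12 of 12134 genes by mean RPKM, Anxa2 ranked 35, S100a10 ranked 102, Anxa1 126, S100a4 137 and Anxa5 172. Anxa6, S100a11, S100a1 and S100a13 ranked 308, 313, 1053 and 1702. Together the 10 members took 0.754%, 0.619% and 0.448% of the reads in shHMGB1 A, B and C, against 0.634%, 0.553% and 0.612% in shCTRL A, B and C. These shares overlap between the groups, and the lowest is again shHMGB1 C. By mean RPKM the order in shHMGB1 was S100a6, Anxa2, S100a10, Anxa1, Anxa5, S100a4, S100a11, Anxa6, S100a1 and S100a13. In shHMGB1 the ranges of S100a6 and Anxa2 were apart from each other and from the rest. From S100a10 to Anxa6 each range overlapped that of the next gene, Anxa6 was apart from S100a1, and S100a1 overlapped S100a13. In shCTRL the order was S100a6, Anxa2, S100a10, S100a4, Anxa1, Anxa5, Anxa6, S100a11, S100a1 and S100a13. The neighbours whose ranges overlapped there were S100a10 and S100a4, S100a4 and Anxa1, and Anxa6 and S100a11.

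**Figure D2:**
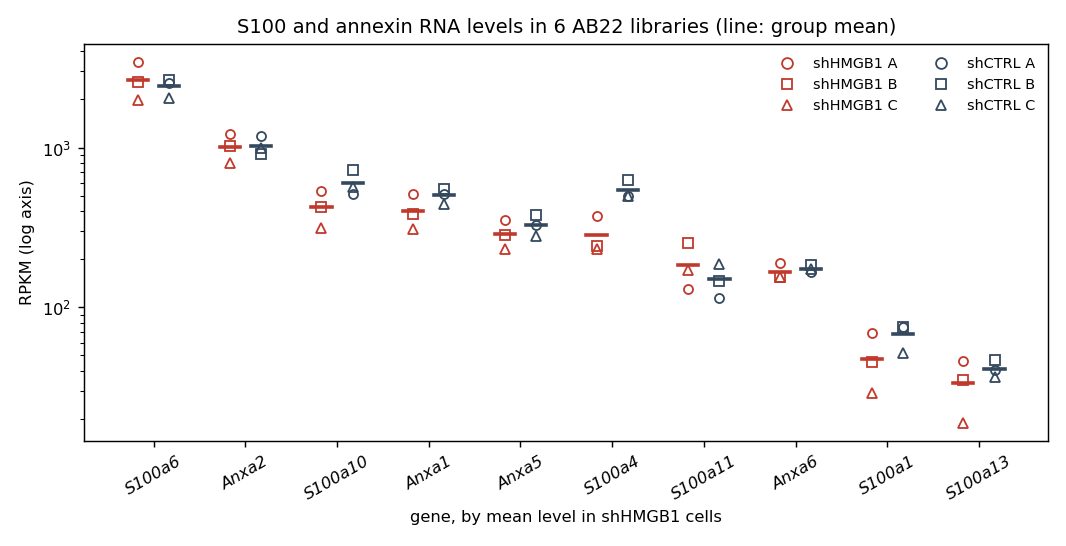
RPKM on a log axis for each member (horizontal axis) in the 3 shHMGB1 libraries (red, left) and the 3 shCTRL libraries (dark, right), with the group mean as a line. S100a4 is the member whose groups do not overlap, at most 375 RPKM in shHMGB1 and at least 497 RPKM in shCTRL.

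Of the 10 members, 0 passed the threshold of adjusted p under 0.05 (limma over 11669 genes), where 0.0257% of all tested genes did, each of them lower in shHMGB1. At an unadjusted p under 0.05 there was 1 member, S100a4, where 7.91% of all tested genes reached that p (3.78% higher and 4.13% lower in shHMGB1). Limma's voom on the recovered reads called 0 members too. Of the members' log2 fold changes 8 were below 0, as were 48.3% of those of all tested genes. With the libraries rescaled to equal sums 4 were below 0, as were 1225 of the 11669 tested genes. The summed RPKM that this rescaling evens out ran from 420968 in shHMGB1 C to 815393 in shCTRL B. Single values reach 17.74 on the deposited log2 scale, and the part of such genes in these sums was not tested. On the deposited scale the median of the members was -0.27, beside 0.01 over all tested genes and -0.18 over genes under 1000 bases. With equal sums it was 0.089, beside 0.36 over all tested genes, without shHMGB1 C it was -0.03, and with the length trend removed -0.20. In bulk RNA, fewer cells with a transcript and less transcript per cell cannot be told apart.

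S100a4, also called metastasin, binds non-muscle myosin and is a fibroblast and motility marker. It measured 375, 242 and 232 RPKM in shHMGB1 A, B and C, against 499, 630.4 and 497 RPKM in shCTRL A, B and C, from 1723 to 6330 reads. The groups did not overlap, with every shHMGB1 value under every shCTRL value, as for 7.07% of tested genes. In limma the difference was -0.96 ± 0.23 on the log2 scale (SE; 95% interval -1.51 to -0.42; unadjusted p = 0.00351, adjusted p = 0.389), so the difference did not pass over all genes. Values as low or lower were found for 95 of the 11669 tested genes (0.814%), 18 of the 957 under 1000 bases and 9 of the 583 with a mean of at least 100 RPKM. It stayed below 0 in all 19 alternatives, from -1.18 without shHMGB1 A to -0.61 with the libraries rescaled to equal sums, with adjusted p from 0.0627 to 0.999. It was -0.84 without shHMGB1 C and -0.79 with the length trend removed.

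S100a6, calcyclin, a growth-associated S100 protein, had groups that overlapped. It measured 3432, 2558 and 1976 RPKM in shHMGB1 A, B and C, against 2551, 2644 and 2048 RPKM in shCTRL A, B and C. The highest and the lowest of the 6 values were both shHMGB1 libraries. In limma the difference on the log2 scale was 0.11 ± 0.26 (SE), its 95% interval -0.48 to 0.70 and its adjusted p 0.884. It turned to -0.09 without shHMGB1 A and to -0.0046 without shCTRL C. It was 0.30 without shHMGB1 C, 0.24 with the length trend removed and 0.47 with equal sums.

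The ratio of S100a4 to S100a6 within a library does not depend on scaling between libraries, and it was chosen after the values were seen. S100a4 stood at 10.9%, 9.46% and 11.8% of the S100a6 level in shHMGB1 A, B and C, against 19.6%, 23.8% and 24.3% in shCTRL A, B and C. On the log2 scale the ratio averaged -3.23 ± 0.16 in shHMGB1 and -2.15 ± 0.17 in shCTRL (SD, n = 3 each), a difference of -1.07 (exact permutation test, two-sided p = 0.1, the smallest that 3 against 3 allows). The groups were apart in this ratio, chosen with those of S100a4 already seen apart, so this p gives no separate support. The difference lay between -1.17 and -0.99 when each library was left out in turn.

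S100a10 and S100a11, named above as partners of annexin A2 and annexin A1, had log2 fold changes of opposite sign, neither past the test. S100a10, the calcium-independent partner of annexin A2, measured 536 RPKM in shHMGB1 A, 425 (B) and 312 (C), against 513 RPKM in shCTRL A, 719.95 (B) and 567 (C). The groups overlapped only in that shHMGB1 A stood above shCTRL A. The difference was -0.52 ± 0.25 on the log2 scale (SE, 95% interval -1.09 to 0.05, unadjusted p = 0.0699 and adjusted p = 0.664 in limma). It was -0.70 without shHMGB1 A, -0.31 without shHMGB1 C and -0.16 with equal sums. S100a11, the partner of annexin A1, measured 129.8, 251 and 170.2 RPKM in shHMGB1 A, B and C, against 115, 147 and 188 RPKM in shCTRL A, B and C. The library with the most was shHMGB1 B and the groups overlapped, with a difference of 0.27 ± 0.28 on the log2 scale (SE; adjusted p = 0.782). Without shHMGB1 B it was 0.02, with the length trend removed 0.44 and with equal sums 0.63.

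S100a1, a regulator of calcium handling best known from muscle, and S100a13, which takes part in the release of FGF1, were the least abundant members. S100a1 measured 68.7, 45.3 and 28.9 RPKM in shHMGB1 A, B and C, against 75.9, 75.3 and 52.0 RPKM in shCTRL A, B and C. S100a13 measured 45.9, 35.3 and 18.9 RPKM in shHMGB1 A, B and C, against 40.2, 47.0 and 36.8 RPKM in shCTRL A, B and C. Both genes were lowest in shHMGB1 C, from 299 and 201 reads, and both pairs of groups overlapped. Log2 fold changes were -0.57 ± 0.32 for S100a1 and -0.39 ± 0.31 for S100a13 (SE; adjusted p = 0.703 and 0.753). Without shHMGB1 C they were -0.26 for S100a1 and -0.03 for S100a13, and with equal sums -0.22 and -0.036 for the same genes. Without shHMGB1 A they were further from 0, at -0.88 for S100a1 and -0.67 for S100a13.

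The 4 annexin members had log2 fold changes from -0.35 to -0.03, and the groups of each overlapped. With equal sums all 4 were above 0, as were 10444 of the 11669 tested genes, and with quantile normalization 2 of 4 were. Anxa2, the membrane-binding partner of S100A10, measured 1224, 1019 and 797.6 RPKM in shHMGB1 A, B and C, against 1180.3, 912 and 989.8 RPKM in shCTRL A, B and C. The extremes of the 6 values were both shHMGB1 libraries, with a difference of -0.03 ± 0.22 on the log2 scale (SE; 95% interval -0.55 to 0.48; adjusted p = 0.961). It turned to 0.13 without shHMGB1 C, 0.033 with the length trend removed and 0.32 with equal sums. Anxa1, a glucocorticoid-induced protein that acts on formyl peptide receptors, measured 515, 381 and 309 RPKM in shHMGB1 A, B and C, against 512, 552 and 444 RPKM in shCTRL A, B and C. Its log2 fold change was -0.35 ± 0.23 (SE; adjusted p = 0.725), -0.54 without shHMGB1 A and -0.18 without shHMGB1 C.

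Anxa5, the phosphatidylserine-binding annexin used to stain dying cells, measured 354, 284 and 231 RPKM in shHMGB1 A, B and C, against 329, 376 and 278 RPKM in shCTRL A, B and C (log2 fold change -0.19 ± 0.22 SE, adjusted p = 0.792). Without shHMGB1 A it was -0.34, and without shHMGB1 C it was -0.04. Anxa6, an annexin with a duplicated core, measured 189, 156 and 154 RPKM in shHMGB1 A, B and C, against 166, 183 and 175 RPKM in shCTRL A, B and C. It had the narrowest interval of the members, with a fold of shHMGB1 over shCTRL of 0.948 (95% interval 0.734 to 1.22; adjusted p = 0.868). On the log2 scale its difference was -0.08, -0.17 without shHMGB1 A and -0.026 without shHMGB1 C. The coefficient of variation of Anxa6 was 11.9% in shHMGB1 and 4.87% in shCTRL. All 10 members had a larger SD of log2 values in shHMGB1 than in shCTRL, as did 65.7% of all tested genes.

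**Figure D3:**
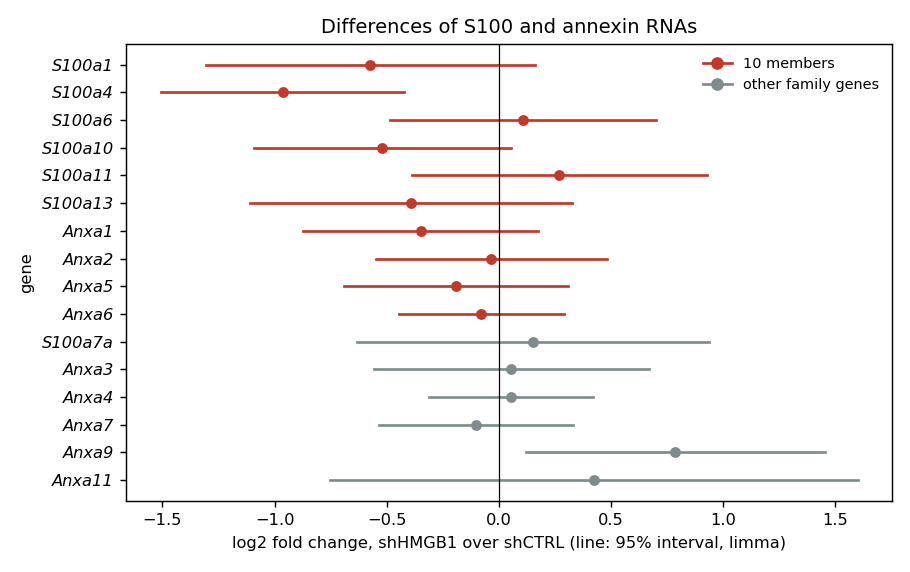
The log2 fold change of shHMGB1 over shCTRL (horizontal axis) with 95% intervals from limma for the 10 members (red) and the other analysed S100 and annexin genes (grey). Among the members the interval of S100a4, -1.51 to -0.42, leaves out 0, and no gene shown passed after adjustment over all genes.

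The relation of S100a10 to Anxa2 and of S100a11 to Anxa1 was read as a ratio within each library. S100a10 stood at 43.8%, 41.8% and 39.1% of the Anxa2 level in shHMGB1 A, B and C, against 43.4%, 78.9% and 57.3% in shCTRL A, B and C. The 3 shHMGB1 libraries were close together, shCTRL A lay among them and shCTRL B and C lay above. The log2 ratio averaged -1.27 ± 0.08 in shHMGB1 and -0.78 ± 0.43 in shCTRL (SD, n = 3 each). The difference was -0.49 (exact permutation test, two-sided p = 0.2). It was -0.26 without shCTRL B and -0.70 without shCTRL A. S100a11 stood at 25.2%, 65.9% and 55.0% of the Anxa1 level in shHMGB1 A, B and C, against 22.4%, 26.6% and 42.3% in shCTRL A, B and C. The groups overlapped through shHMGB1 A, and the log2 ratio averaged -1.15 ± 0.74 in shHMGB1 and -1.77 ± 0.47 in shCTRL (SD, n = 3 each), a difference of 0.62 (exact permutation test, two-sided p = 0.3). It was 1.04 without shHMGB1 A and 0.34 without shHMGB1 B.

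**Figure D4:**
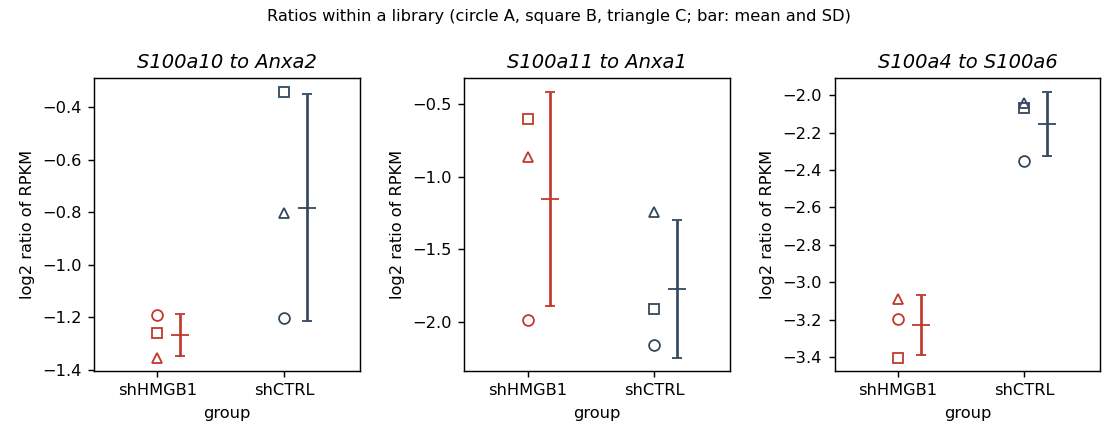
Log2 ratios of RPKM within a library (vertical axes) for S100a10 to Anxa2, S100a11 to Anxa1 and S100a4 to S100a6, in shHMGB1 (left) and shCTRL (right); bars are the mean and SD of 3 libraries. The S100a4 to S100a6 ratio, chosen after the values were seen, is apart between the groups (means -3.23 and -2.15), and the other ratios overlap.

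Other genes of the families were tested in the same fit. Of 10 further S100 genes only S100a7a was analysed here, at 1.96 ± 0.55 RPKM in shHMGB1 and 1.78 ± 0.61 RPKM in shCTRL (SD, n = 3 each; adjusted p = 0.877). Of 8 further annexins 5 were tested and 0 passed, with 4 log2 fold changes above 0 (2 with median centring). The most abundant were Anxa4, at 144 ± 6.71 RPKM in shHMGB1 and 139 ± 16.6 RPKM in shCTRL, and Anxa3, at 78.4 ± 22.1 and 74.9 ± 17.9 RPKM in the same groups. Anxa9, named after its values were seen, was the only further annexin with an unadjusted p under 0.05, at 1.10, 1.66 and 2.08 RPKM in shHMGB1 A, B and C against 1.00, 0.706 and 0.899 RPKM in shCTRL A, B and C (limma, adjusted p = 0.568). Every shHMGB1 value of Anxa9 was above every shCTRL value, as for 6.9% of tested genes.

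Receptors and partners of the proteins were also read. Of 12 receptor, co-receptor and adaptor genes for S100 proteins, annexin A1 and HMGB1, 5 were tested and 0 passed. Ager, which encodes RAGE, and the formyl peptide receptor genes Fpr1, Fpr2 and Fpr3 were not among them. Tlr4 was tested, at 8.88 ± 0.69 RPKM in shHMGB1 and 10.3 ± 0.97 RPKM in shCTRL (SD, n = 3 each, adjusted p = 0.742 in limma). Of the 5 log2 fold changes 4 were below 0, with a median of -0.21 beside 0.01 over all tested genes. With equal sums the median was 0.14, beside 0.36 over all tested genes. Bsg, the most abundant, which encodes the S100A9 receptor basigin, averaged 307 ± 31.0 RPKM in shHMGB1 and 347 ± 38.2 RPKM in shCTRL, and the adaptor gene Myd88 lay at 17.4 to 18.5 RPKM in shHMGB1 and 14.6 to 18.7 RPKM in shCTRL. Ly96, the co-receptor MD-2 of Toll-like receptor 4, was named after its values were seen as the only gene of this list with an unadjusted p under 0.05. It measured 4.48, 3.39 and 3.74 RPKM in shHMGB1 A, B and C, against 5.34, 5.84 and 5.16 RPKM in shCTRL A, B and C, so the groups did not overlap, as for 7.07% of tested genes (limma, adjusted p = 0.574). Its log2 fold change was -0.49, and -0.14 with equal sums.

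Of 12 genes for plasminogen activation and S100A10-annexin A2 partners, 8 were tested and 0 passed. Of their log2 fold changes 7 were above 0, as were 6030 of the 11669 tested genes. Their median was 0.22 (0.16 to 0.58 under the other scalings), beside 0.01 over all tested genes. The 0.58 came with equal sums, where the median over all tested genes was 0.36. With the length trend removed 6 were above 0, with a median of 0.17, and Ahnak was at -0.044. Ahnak, a giant scaffold protein that binds the S100A10-annexin A2 complex, averaged 262 ± 78.2 RPKM in shHMGB1 and 211 ± 34.1 RPKM in shCTRL (adjusted p = 0.767). Plaur, the urokinase receptor gene, named after its values were seen, averaged 91.4 ± 25.1 RPKM in shHMGB1 and 60.3 ± 4.94 RPKM in shCTRL (unadjusted p = 0.0413 and adjusted p = 0.615 in limma).

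The genes whose profile over the 6 libraries was most like that of the leading members were picked by Pearson correlation of log2(RPKM + 0.1), as a description. For S100a6 they were Mtmr2 (r = 0.998), Gm45456 (r = 0.998) and Tmem14a (r = 0.993), and 395 of 11659 genes reached 0.9. For Anxa2 they were Gm5913 (r = 0.995), Zfas1 (r = 0.989) and 2310011J03Rik (r = 0.988), with 110 genes at 0.9 or more. The 6 points share the library deviations by gene length described above.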

How the data were processed

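RNA libraries, 3 from shHMGB1 and 3 from shCTRL cells, were sequenced after ribosomal RNA subtraction (RiboMinus) and TruSeq library preparation, per the labels' protocols. The tools that the authors list, per the submitters' processing notes, are edgeR, featureCounts, STAR 2.5.3a and Trimmomatic 0.32, and the builds named are GRCm38 and mm10. The deposited values are log2 RPKM, 1 per gene and library, from -9.20 to 17.74, and all 6 columns were matched to samples by name. They were raised as powers of 2. The 11669 genes whose mean reached 0.5 RPKM (465 were left out) were tested on log2(RPKM + 0.1) with limma 3.58.1 in R 4.3.3, group as the only term, eBayes with trend and robust, two-sided, with Benjamini-Hochberg adjustment over all of them at 0.05. Each fold change has shHMGB1 on top and is on that scale, which understates changes of low genes. Ratios within a library were tested by exact permutation over the 6 libraries.

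Reads were recovered from the steps of the deposited values, with 0.25 reads taken off as a prior scaled by library size. The library sizes came from a search over 1610 single-transcript genes of GENCODE M21 (90.4% of their values whole within 0.05 reads). A gene length of 40 to 60000 bases giving whole reads in all 6 libraries (within 0.02) was then found for 12132 of 12134 genes, and for 0 of 500 genes with wrong library sizes. The fit and the read recovery were tested on simulated data. No 2 libraries shared more than 2 identical values.

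The members and gene lists were chosen with earlier results of these data known. The rule for names took Hmgb1, the 10 members, the 2 most abundant tested genes of each other list (none passed the threshold) and the 3 genes most correlated with S100a6 and with Anxa2. The values of 1 gene that the rule names are not reported here. Names outside this rule, Anxa9, Ly96, Plaur and Tlr4 among tested genes and Cdh1 among untested ones, were picked with their values in view. Alternatives covered the pseudocount, filter, scaling, moderation, library weights, the replicate letter and each library left out. Voom on the recovered reads and removal of a trend on gene length (loess) were added after the data were seen. Strandedness and the gene model were not stated.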

Additional observations from a re-analysis of the deposited data

How the results depend on the processing

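Of the 10 members, 0 were called in any of the 19 alternatives. The median log2 fold change of the members, -0.27, ranged from -0.44 to -0.03 when each library was left out and became 0.089 with the libraries rescaled to equal sums, where the median of all genes moved to 0.36. Under that rescaling Anxa1, Anxa2, Anxa5 and Anxa6 had 0.0094, 0.32, 0.17 and 0.28, and Bsg, Cav1, Calu and Rcn3 had 0.18, 0.23, 0.27 and 0.16, all below that median. Quantile normalization gave 0.20 for Anxa2, 0.054 for Anxa6, 0.023 for Bsg, 0.043 for Cav1 and 0.093 for Calu. Median centring gave -0.0065 for Anxa4, -0.0041 for Anxa3 and -0.033 for Capn2, array quality weights gave -0.024 for Anxa3, and removal of the length trend gave 0.033 for Anxa2, -0.044 for Ahnak and -0.010 for Capn2. These are sign changes of values that passed no test, and their cause was not tested.

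With each library left out, S100a6 ranged from -0.094 to 0.30, Anxa2 from -0.18 to 0.13, S100a7a from -0.15 to 0.40, Anxa4 from -0.023 to 0.15, Anxa3 from -0.15 to 0.26, Myd88 from -0.0098 to 0.17 and Capn2 from -0.015 to 0.062. The number of genes called, 3, ranged from 0 to 8 in the same way. It was 0 among genes of at least 5 RPKM, 5 with median centring, 5 with rescaling to equal sums, 21 with array quality weights and 6 with the length trend removed. Hmgb1 ranged from -2.93 to -2.48 without each library, and among genes of at least 5 RPKM it kept -2.73 with adjusted p = 0.0546. The replicate letters were not taken as pairs: deviations from the group means correlated across genes at 0.15, -0.10 and 0.48 for the letters A, B and C, and shHMGB1 A was closest to shCTRL B (0.54). A fit with the replicate block called 7 genes and 0 members. The 3 ratios within a library kept their direction with a pseudocount of 1 and without each library. With the letters as blocks the exact p from sign flips was 0.5 for S100a10 to Anxa2. It was 0.25 for the others, the smallest that 3 pairs allow. Each member rests on at least 201 reads per library.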

Other observations

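Membrane repair genes, which share calcium-triggered patching of the plasma membrane with the annexins, showed 0 of 14 tested genes past the threshold. Of their log2 fold changes 9 were above 0 (7 with the length trend removed), with a median of 0.08. With equal sums 14 were above 0, as were 10444 of the 11669 tested genes. Cav1, the caveolin gene and the most abundant, averaged 629.8 ± 78.9 RPKM in shHMGB1 and 690.5 ± 88.2 RPKM in shCTRL (SD, n = 3 each), and Capn2, a calpain gene, averaged 192 ± 10.1 and 188 ± 9.76 RPKM in the same groups. Of the list, 0 genes had an unadjusted p under 0.05.

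Other EF-hand calcium sensors had 0 of 19 genes past the threshold and 0 at an unadjusted p under 0.05. Of their log2 fold changes 14 were below 0, with a median of -0.11. With equal sums 2 were below 0, as were 1225 of the 11669 tested genes. The median was then 0.25, beside 0.36 over all tested genes. Calu and Rcn3, calcium-binding proteins of the secretory pathway, averaged 397 ± 37.1 and 215 ± 20.0 RPKM in shHMGB1, and 421 ± 27.8 and 246 ± 17.6 RPKM in shCTRL (SD, n = 3 each).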
